A study of Mus musculus with 12 samples.

Results

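Integrins and laminins are both ends of the contact between a cell and its basement membrane, and their genes were followed here across 2 striatal cell lines and an inflammatory challenge. The genes were chosen by name from the deposited table: every row named Itga with a number, with 1 letter or as 2b, every row named Itgb with a number, and every row named Lama, Lamb or Lamc with a number. The rule uses no measured value. It takes 36 of the 29428 genes in the table, 26 integrin genes and 10 laminin genes. A low-value filter of at least 0.5 TPM in at least 3 libraries was passed by 23 of the 36, namely 16 integrin genes and 7 laminin genes, and by 16127 genes of the whole table.

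RNA-seq was done on STHdhQ7 and STHdhQ111 cells, immortal lines from the mouse striatum whose huntingtin gene encodes 7 or 111 glutamines. Each line was left without treatment (Q7-C and Q111-C) or was given 100 ng/mL IFNγ, the macrophage-activating interferon, together with 5 μg/mL LPS, a component of the bacterial outer membrane, for 24 h (Q7-T and Q111-T). There were 3 libraries in each of the 4 groups, and all cells grew at 33 °C in medium with serum. Each genotype is represented by 1 line, so the glutamine number and every other difference between these lines cannot be told apart, and IFNγ and LPS were always given together.

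An integrin is a receptor made of 1 α chain and 1 β chain. It spans the membrane, binds matrix proteins or counter-receptors outside the cell and couples to actin through talin and kindlin inside. A laminin is a cross-shaped trimer of an α, a β and a γ chain and forms the sheet of the basement membrane on which integrins, dystroglycan and syndecans take hold. In the brain, laminins lie mainly around vessels and at the pial surface, and β2 integrins belong to microglia and infiltrating leukocytes.

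The label calls both lines neuronal. The synaptic genes Syt1 and Snap25 were at or near 0, with no library above 0.025 TPM, while Map2 and Tubb3 passed the filter. Of the striatal projection neuron markers Ppp1r1b alone passed. All 6 mesenchymal markers passed. Their summed level was 4243 to 4838 TPM in Q7-C, 3285 to 3713 in Q7-T, 3671 to 3829 in Q111-C and 1502 to 1622 in Q111-T. These markers did not move together between the nontreated lines. By group mean, Acta2 stood at 1670 TPM in Q7-C and 43.7 in Q111-C, and Vim at 2493 and 2462. Col1a1 stood at 265 and 791 TPM, Col1a2 at 14.6 and 250, Col3a1 at 27.7 and 136 and Pdgfrb at 39.2 and 70.0. The part of this list in the results was not tested. The leukocyte-defining gene Ptprc had no value above 0.0064 TPM in any library. In bulk RNA, fewer cells of a kind and less RNA per cell cannot be told apart.

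Some libraries were low in long transcripts. For the top length quartile of the tested genes, the median deviation from the mean of the other 2 libraries of the group was -0.80 on the log2(TPM + 0.5) scale in Q7-C replicate 1, -1.04 in Q7-T replicate 2 and -0.49 in Q111-T replicate 2. Integrin and laminin transcripts are long: the median length of the longest transcript was 5164 bases for the 23 genes and 2816 bases for all genes tested, and 16 of the 23 lay in the top quartile. In these 3 libraries, 21, 19 and 21 of the 23 genes had the lowest value of their group, against 16 in Q111-C replicate 1, the lowest-lying library of its group. This widens the spread within Q7-C, Q7-T and Q111-T. Counts of the 23 genes made without the 3 libraries are given below for the treatment comparisons and the interaction.

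Promoter sequences are shown for 3 integrin genes. Itgb7 has the highest log2 fold change of the integrin genes called as higher in nontreated STHdhQ111, Itga11 fell with IFNγ/LPS in both lines, and Itga10, its close relative, is shown beside it. Each sequence holds the 250 bases before a RefSeq transcript start in GRCm38.p6, read 5′ to 3′ on the strand of the gene, and capitals mark a match to the interferon-γ-activated site (GAS).
Itgb7, chr15:102231936-102232185, minus strand: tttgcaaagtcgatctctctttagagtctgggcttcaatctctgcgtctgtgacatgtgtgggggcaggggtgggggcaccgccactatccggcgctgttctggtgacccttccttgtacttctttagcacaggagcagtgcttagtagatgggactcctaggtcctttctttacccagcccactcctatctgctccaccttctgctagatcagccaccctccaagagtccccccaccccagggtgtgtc
Itga11, chr9:62677605-62677854, plus strand: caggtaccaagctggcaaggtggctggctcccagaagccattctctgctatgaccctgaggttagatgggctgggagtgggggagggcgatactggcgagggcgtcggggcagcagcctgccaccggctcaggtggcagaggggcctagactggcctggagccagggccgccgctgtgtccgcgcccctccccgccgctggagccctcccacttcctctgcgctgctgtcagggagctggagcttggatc
Itga10, chr3:96645334-96645583, plus strand: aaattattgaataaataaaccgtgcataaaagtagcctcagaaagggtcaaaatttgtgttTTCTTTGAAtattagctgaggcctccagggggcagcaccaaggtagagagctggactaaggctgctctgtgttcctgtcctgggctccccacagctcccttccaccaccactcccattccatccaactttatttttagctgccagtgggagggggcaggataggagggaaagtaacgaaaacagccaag
The motifs searched on both strands were GAS (TTCNNNGAA), the AP-1 site (TGANTCA) and the NF-kB consensus. Windows of the same length with a match made up 7.02%, 6.75% and 3.9% of all 32851 windows. Of the 26 windows of the 23 members found in the promoter table, GAS matched in 2 (Itga10, 189 bases before the start, and Lamb2, 208 bases before it). The AP-1 site matched in 1 (Itgax), and the NF-kB consensus matched in 1 (Lamb3). The printed Itgb7 and Itga11 windows held none of the 3 motifs.

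More of the 23 genes were called between the lines than for IFNγ/LPS, an order that all genes together also showed, and the difference between these counts was not tested. A gene was called when edgeR's quasi-likelihood test gave a Benjamini-Hochberg adjusted p under 0.05 over all genes tested and the fold was at least 2. In Q111-C vs. Q7-C, 12 of the 23 were called (52.2%), 3 higher and 9 lower in Q111-C, where 15.2% of all genes were called. Between the treated lines (Q111-T vs. Q7-T), 13 were called, 6 higher and 7 lower, beside 24.5% of all genes. Lama4, Lama2 and Itgb8, called in both of these comparisons, and Itga2, called in the second, reached 0.5 TPM in libraries of 1 line alone. They entered the test through the line where they are high, so their values are given below as a description, and 9 calls in each comparison are of other genes. For IFNγ/LPS in STHdhQ7 (Q7-T vs. Q7-C), 4 were called, 2 higher and 2 lower, beside 4.04% of all genes. For IFNγ/LPS in STHdhQ111 (Q111-T vs. Q111-C), 3 were called, 1 higher and 2 lower, beside 11.2% of all genes. The interaction of line and treatment, which tests whether the responses of the 2 lines differ, called 3 genes, all with the higher value in STHdhQ111, beside 4.71% of all genes.

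In all, 17 of the 23 were called in at least 1 comparison, and 9 were called in both comparisons between the lines. The 9 include Lama4, Lama2 and Itgb8, and the 17 also include Itga2, which passed the filter through 1 line alone. The share of all genes was not counted in this way, so neither count is read as a result about these genes. Groups of 3 libraries did not overlap in TPM for 16 of the 23 genes between nontreated lines (51.4% of all genes), 11 between treated lines (46.3%), 9 for treatment of STHdhQ7 (14.4%) and 12 for treatment of STHdhQ111 (49.6%). The median log2 fold change of the 23 was -0.56 in Q111-C vs. Q7-C, where it was -0.02 for all genes. The comparisons share groups, so their values are given side by side and not as separate evidence. Without the 3 libraries low in long transcripts, 7 genes were called for treatment of STHdhQ7, 6 for treatment of STHdhQ111 and 5 by the interaction, beside 5.04%, 13.7% and 9.85% of all genes in the same fit. The 7 include Itga10 and the 6 include Itga2, which passed the filter through libraries of 1 condition alone.

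**Figure D1:**
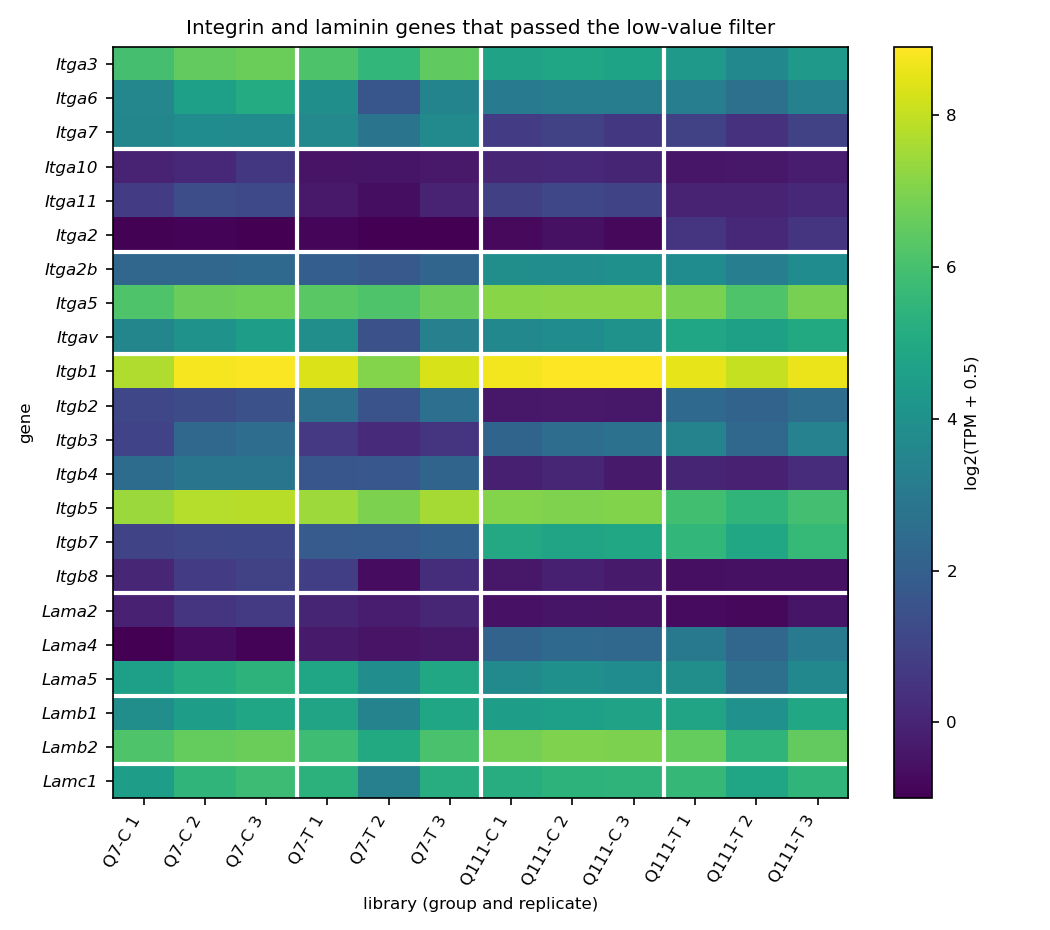
Heat map of log2(TPM + 0.5) for 22 of the 23 genes that passed the filter, 1 row per gene and 1 column per library, with white lines between groups of libraries and between kinds of chain. Itgb1 reached 475.2 TPM and was the most abundant gene of the set, and Itgb7 and Lama4 are bright in the 6 STHdhQ111 libraries and dark in the 6 STHdhQ7 libraries.

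The laminin-binding α chains were lower in nontreated STHdhQ111. Itga3, Itga6 and Itga7 encode the α chains that bind laminin, and all 3 were called lower in Q111-C vs. Q7-C. Itga3 (chr11:95044474-95076797), whose α3β1 receptor binds laminins with the α5 chain, stood at 61.8, 91.2 and 100.2 TPM in Q7-C and at 25.4, 28.6 and 26.0 TPM in Q111-C. After IFNγ/LPS it stood at 69.9, 46.9 and 88.8 TPM in Q7-T and at 20.2, 11.9 and 19.8 TPM in Q111-T. Every STHdhQ111 library was under every STHdhQ7 library. The log2 fold change was -1.96 ± 0.17 (SE) between nontreated lines (edgeR adjusted p = 8.22e-06) and -2.39 ± 0.17 between treated lines (adjusted p = 1.86e-06). Within STHdhQ111, IFNγ/LPS lowered Itga3 by less than the fold threshold, with a log2 fold change of -0.55 ± 0.16 and an edgeR adjusted p of 0.0369.

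Itga7 (chr10:128933818-128958282), the main laminin receptor chain of muscle, showed a wider gap. It stood at 11.0, 13.5 and 13.3 TPM in Q7-C and at 1.17, 1.42 and 1.02 TPM in Q111-C. The treated values were 12.1, 6.50 and 12.9 TPM in Q7-T and 1.42, 0.832 and 1.41 TPM in Q111-T. The lines did not overlap in either condition. The nontreated lines differed 13.0-fold (log2 fold change -3.70 ± 0.20, edgeR adjusted p = 2.66e-07) and the treated lines 11.1-fold (-3.48 ± 0.20, adjusted p = 4.2e-07). Mettl7b lies on the opposite strand within the bounds of Itga7, and the library kit keeps the strand of the RNA, while the strand setting of the counting is not stated in the sources used here. Genes on the opposite strand also overlap Itgav, Itga6, Lama2 and Lamc1.

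Itga6 (chr2:71745616-71858416), the α chain of the hemidesmosomal α6β4 receptor, varied widely within STHdhQ7. It stood at 11.3, 23.4 and 33.5 TPM in Q7-C and at 7.84, 8.74 and 8.63 TPM in Q111-C. In Q7-T it stood at 14.5, 2.65 and 10.4 TPM and in Q111-T at 8.87, 5.85 and 9.75 TPM. The nontreated lines did not overlap and the treated lines did. Its log2 fold change was -1.69 ± 0.38 in Q111-C vs. Q7-C (edgeR adjusted p = 0.00651) and -0.45 ± 0.37 in Q111-T vs. Q7-T (adjusted p = 0.35). The first call was lost in all 3 limma fits on TPM, where the adjusted p reached 0.147.

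Itgb4 was called lower in STHdhQ111 with and without treatment. Itgb4 (chr11:115974709-116008412) encodes β4, which pairs with α6 alone and anchors epithelial cells to laminin. Its values were 5.14, 6.71 and 6.72 TPM in Q7-C, 2.64, 2.71 and 4.10 TPM in Q7-T, 0.413, 0.542 and 0.323 TPM in Q111-C, and 0.509, 0.436 and 0.700 TPM in Q111-T. No STHdhQ111 library reached the lowest STHdhQ7 library. The fold was 17.9 between nontreated lines (log2 fold change -4.16 ± 0.28, edgeR adjusted p = 1.45e-06) and 7.74 between treated lines (-2.95 ± 0.27, adjusted p = 1.09e-05). The interaction was 1.21 ± 0.36 on the log2 scale, with an edgeR adjusted p of 0.0762, and it was called at 1.43 (adjusted p = 0.0246) without the 3 libraries low in long transcripts. B230344G16Rik overlaps Itgb4 on the opposite strand.

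Itgb8 (chr12:119158022-119238802) encodes β8, which pairs with αv and releases active TGF-β, and it passed the filter through STHdhQ7 alone. It stood at 0.546, 1.13 and 1.44 TPM in Q7-C and at 0.274, 0.421 and 0.322 TPM in Q111-C. In Q7-T it stood at 1.29, 0.128 and 0.723 TPM, and in Q111-T at 0.158, 0.183 and 0.182 TPM. Q7-T replicate 2 was below all Q111-T libraries. The log2 fold changes were -1.87 ± 0.51 between nontreated lines and -2.23 ± 0.52 between treated lines, given with no test for that reason. The edgeR call between nontreated lines was lost when any 1 of 5 single libraries was left out (Q7-C replicates 2 and 3 and each Q111-C library), with log2 fold changes between -2.01 and -1.62. Both calls were lost in all 3 limma fits on TPM.

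Of the β chain genes known from leukocytes, Itgb7 was called higher and Itgb2 lower in nontreated STHdhQ111. Itgb7 (chr15:102215995-102231944) encodes β7, known from gut-homing lymphocytes as the partner of α4 and αE. It stood at 1.53, 1.68 and 1.69 TPM in Q7-C and at 30.9, 27.0 and 29.7 TPM in Q111-C. After treatment it stood at 3.12, 3.14 and 3.68 TPM in Q7-T and at 46.6, 29.6 and 48.4 TPM in Q111-T. The lowest STHdhQ111 library was above every STHdhQ7 library by a wide margin. The nontreated lines differed 14.1-fold (log2 fold change 3.82 ± 0.23, edgeR adjusted p = 6.87e-07) and the treated lines 9.06-fold (3.18 ± 0.23, adjusted p = 1.72e-06).

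Within STHdhQ7, IFNγ/LPS raised Itgb7 2.34-fold (log2 fold change 1.23 ± 0.21, edgeR adjusted p = 0.00457). The call was lost in all 3 limma fits on TPM (0.71 to 0.97 on the log2 scale) and in a fit of the groups compared alone (adjusted p = 0.12). Within STHdhQ111 the log2 fold change was 0.59 ± 0.21 (edgeR adjusted p = 0.0729). The difference between the responses was -0.64 ± 0.30 with an edgeR adjusted p of 0.259, so the responses were not shown to differ. The known partner chains of β7 were hardly present: Itga4 had no library above 0.0775 TPM and Itgae none above 0.288 TPM.

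Itgb2 (chr10:77530252-77565686) encodes β2, the shared chain of the leukocyte integrins. It stood at 1.66, 1.98 and 2.26 TPM in Q7-C and at 0.269, 0.292 and 0.285 TPM in Q111-C. After IFNγ/LPS it stood at 5.87, 2.42 and 5.55 TPM in Q7-T and at 4.71, 3.88 and 5.35 TPM in Q111-T. The nontreated lines were far apart, and the treated lines overlapped. The log2 fold change between the lines was -3.08 ± 0.23 without treatment (edgeR adjusted p = 2.85e-06) and -0.33 ± 0.21 with it (adjusted p = 0.231).

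Itgb2 rose 17.1-fold with IFNγ/LPS in STHdhQ111 (log2 fold change 4.10 ± 0.24, edgeR adjusted p = 5.08e-07) and 2.54-fold in STHdhQ7 (1.34 ± 0.21, adjusted p = 0.00207). The rise in STHdhQ7 was lost in all 3 limma fits on TPM (0.86 to 1.10 on the log2 scale, adjusted p 0.081 to 0.0862). The difference between these responses was 2.75 ± 0.30 on the log2 scale (edgeR adjusted p = 0.000481), and it was lost with limma at a pseudocount of 1 (adjusted p = 0.0501). Its leukocyte α partners were at or near 0: Itgal, Itgam, Itgax and Itgad had highest values of 0.163, 0.0762, 0.302 and 0.185 TPM. Of the macrophage markers, Cd68 alone passed the filter, and it made up most of the summed level of the marker list. That sum was 5.93 to 8.32 TPM in Q7-C, 8.81 to 15.2 in Q7-T, 14.4 to 16.7 in Q111-C and 40.8 to 58.0 in Q111-T. Csf1r, the receptor that defines the macrophage lineage, was at 0.479 TPM or less in all libraries.

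Of the 3 RGD-binding α chains tested, Itgav and Itga2b were called between the treated lines and Itga5 was not. The αv chain (Itgav, chr2:83724397-83806916) binds vitronectin, fibronectin and osteopontin together with β1, β3, β5, β6 or β8. Itgav stood at 11.1, 16.4 and 22.3 TPM in Q7-C, 14.5, 2.21 and 9.41 TPM in Q7-T, 11.9, 13.5 and 15.8 TPM in Q111-C, and 28.0, 23.9 and 32.1 TPM in Q111-T. All Q111-T libraries were above all other libraries. The treated lines differed 2.69-fold (log2 fold change 1.43 ± 0.37, edgeR adjusted p = 0.0101), and the nontreated lines had a log2 fold change of -0.56 ± 0.36 (adjusted p = 0.327). The first call was lost in a fit of the groups compared alone (adjusted p = 0.0509).

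The responses of Itgav were -0.86 ± 0.36 in STHdhQ7 (edgeR adjusted p = 0.274) and 1.12 ± 0.37 in STHdhQ111 (adjusted p = 0.0534) on the log2 scale. Neither was called, and their difference was called at 1.99 ± 0.52 (edgeR adjusted p = 0.046). That call was lost in 14 of 22 alternatives, 9 of them the omission of 1 library, with adjusted p up to 0.173. Without the 3 libraries low in long transcripts, the rise in STHdhQ111 was called (1.16, adjusted p = 0.0006).

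Itgb3 (chr11:104608000-104670476) encodes β3 of the αvβ3 and platelet αIIbβ3 receptors. It stood at 1.47, 4.42 and 5.30 TPM in Q7-C, 1.07, 0.637 and 0.900 TPM in Q7-T, 4.05, 5.38 and 5.99 TPM in Q111-C, and 10.4, 4.48 and 10.0 TPM in Q111-T. Every Q7-T library was under every other library. In STHdhQ7 it fell 3.6-fold with treatment (log2 fold change -1.85 ± 0.35, edgeR adjusted p = 0.00794), and in STHdhQ111 the log2 fold change was 0.76 ± 0.34 (adjusted p = 0.158), which became a call without the 3 libraries low in long transcripts (1.02, adjusted p = 0.0006). The difference between the responses was 2.61 ± 0.49 (edgeR adjusted p = 0.00951). Both calls were lost in all 3 limma fits on TPM (adjusted p 0.0634 to 0.101 for the fall and 0.0663 to 0.0746 for the difference), and the fall also in a fit of the groups compared alone (adjusted p = 0.0692). The treated lines differed 7.11-fold (2.83 ± 0.36, adjusted p = 0.000119), and the nontreated lines had a log2 fold change of 0.22 ± 0.34 (adjusted p = 0.701).

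Itgb5 (chr16:33829665-33949338), whose αvβ5 receptor binds vitronectin, went the other way. It was the second most abundant β chain, at 171.2, 219.5 and 226.4 TPM in Q7-C and 131.9, 125.7 and 129.5 TPM in Q111-C. In Q7-T it stood at 171.5, 121.2 and 190.0 TPM, and in Q111-T at 58.7, 44.0 and 61.5 TPM. The Q111-T libraries were the lowest of all. Itgb5 fell 2.22-fold with IFNγ/LPS in STHdhQ111 (log2 fold change -1.15 ± 0.12, edgeR adjusted p = 5.46e-05), and in STHdhQ7 the log2 fold change was -0.17 ± 0.12 (adjusted p = 0.598). The difference of -0.98 ± 0.17 (edgeR adjusted p = 0.00748) missed the fold threshold, and it was called in 5 fits that left out a single library, at -1.05 to -1.01. The treated lines differed 3.89-fold (-1.96 ± 0.13, adjusted p = 9.47e-07), and the nontreated lines 1.98-fold (-0.98 ± 0.12, adjusted p = 0.000142), just short of that threshold.

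**Figure D2:**
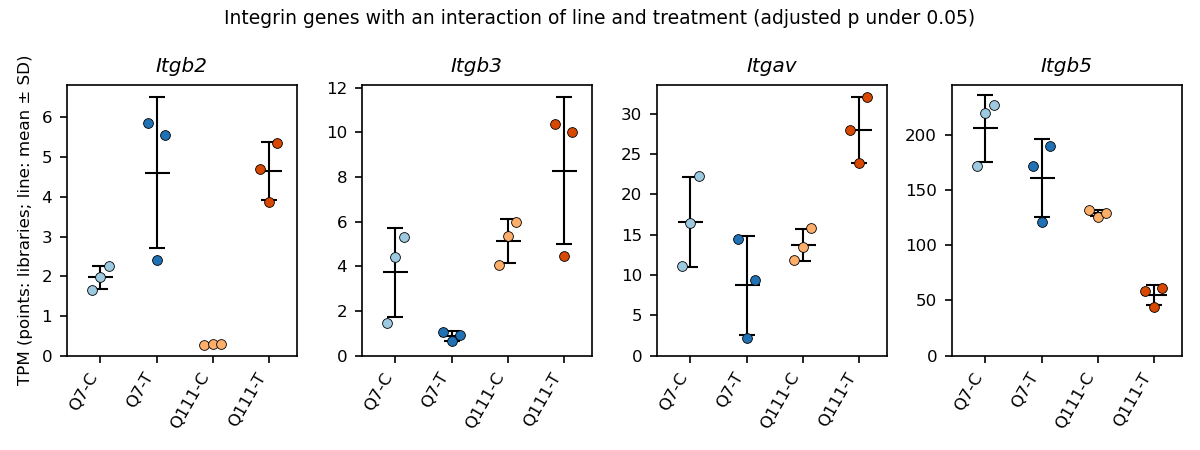
TPM of Itgb2, Itgb3, Itgav and Itgb5 in each library (points), with the mean and SD of each group of 3. Itgb2 is near 0 in Q111-C and rises to between 3.88 and 5.35 TPM in Q111-T, Itgb3 and Itgav are highest in Q111-T and lowest in Q7-T by group mean, and Itgb5 is lowest in Q111-T.

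Itga2b (chr11:102453297-102470122) encodes αIIb, the α chain of the platelet fibrinogen receptor. It stood at 4.32, 4.31 and 4.68 TPM in Q7-C and at 14.3, 13.8 and 15.1 TPM in Q111-C. In Q7-T it stood at 3.43, 2.88 and 4.14 TPM, and in Q111-T at 13.5, 8.99 and 13.5 TPM. The STHdhQ111 libraries were all above the STHdhQ7 libraries. The log2 fold change was 1.36 ± 0.18 between nontreated lines (edgeR adjusted p = 0.000227) and 1.35 ± 0.18 between treated lines (adjusted p = 0.000181). The platelet markers Pf4 and Gp9 were at 0 in 11 of 12 libraries each, and the summed level of the platelet list had no value above 0.909 TPM.

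Among collagen receptors, Itga11 was called lower with treatment in both lines. Itga11 (chr9:62677826-62783982), the fibroblast receptor chain for fibrillar collagen, stood at 1.17, 2.04 and 1.74 TPM in Q7-C and at 0.302, 0.144 and 0.467 TPM in Q7-T. In Q111-C it stood at 1.35, 1.62 and 1.55 TPM, and in Q111-T at 0.496, 0.452 and 0.606 TPM. Treated and nontreated libraries did not overlap in either line. It fell 4.89-fold in STHdhQ7 (log2 fold change -2.29 ± 0.30, edgeR adjusted p = 0.00056) and 2.72-fold in STHdhQ111 (-1.44 ± 0.29, adjusted p = 0.00466). The second call was lost with limma at pseudocounts of 0.5 and 1, where the log2 fold change was -0.98 and -0.73. The difference between the responses was 0.85 ± 0.41 with an edgeR adjusted p of 0.278.

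Itga2 (chr13:114833081-114932100), the α chain of the epithelial and platelet collagen receptor, passed the filter through Q111-T alone. It stood at 0.894, 0.589 and 0.917 TPM in Q111-T and at 0.0893, 0.182 and 0.0729 TPM in Q111-C. In both STHdhQ7 groups no library went above 12 estimated counts, about 3 read pairs, which is treated as not detected. Q111-T was at least 13.4-fold higher than Q7-T, and Q111-C at least 2.13-fold higher than Q7-C. As the gene entered the test through the group where it is high, its call between the treated lines is no support for a difference, and its other differences are given with no test. Within STHdhQ111 the log2 fold change of Itga2 with treatment was 2.87 ± 0.99. Itga10, another collagen receptor chain, ranged from 0.468 to 1.02 TPM in Q7-C, 0.222 to 0.289 in Q7-T, 0.517 to 0.580 in Q111-C and 0.260 to 0.378 in Q111-T. Its treated and nontreated libraries did not overlap in either line. It passed the filter through nontreated libraries alone, so its log2 fold changes with treatment, -1.25 ± 0.33 in STHdhQ7 and -0.75 ± 0.33 in STHdhQ111, are given with no test.

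Itgb1 and Itga5, the most abundant β and α chains by group mean in all 4 groups, were called in no comparison. Itgb1, the common partner of most α chains, ranged from 208.4 to 456.6 TPM in Q7-C, 134.1 to 332.7 in Q7-T, 419.5 to 475.2 in Q111-C and 257.6 to 387.5 in Q111-T. Itga5, the fibronectin receptor chain, ranged from 70.6 to 104.2 TPM in Q7-C, 71.4 to 98.8 in Q7-T, 141.8 to 143.2 in Q111-C and 70.7 to 120.0 in Q111-T. The log2 fold change of Itgb1 between nontreated lines was 0.04 ± 0.20, and that of Itga5 was 0.35 ± 0.17 (edgeR adjusted p = 0.916 and 0.186).

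Of the 3 laminin α genes that passed the filter, Lama5 reached 0.5 TPM in both lines and was called lower in STHdhQ111 with and without treatment. Lama4 passed through STHdhQ111 alone and Lama2 through STHdhQ7 alone, so their differences between the lines are given with no test. Lama4 (chr10:38965515-39110188), a chain of vessel and mesenchymal basement membranes, stood at 0, 0.121 and 0.0313 TPM in Q7-C and at 3.98, 4.72 and 4.45 TPM in Q111-C. In Q7-T it stood at 0.311, 0.224 and 0.277 TPM, and in Q111-T at 7.42, 4.28 and 7.89 TPM. The lines were separated in both conditions. The log2 fold change was 6.14 ± 0.78 without treatment and 4.14 ± 0.69 with it. The fold behind the first value rests on few counts in Q7-C, and the log2 fold change ranged from 2.36 to 7.69 over 23 alternatives.

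Within STHdhQ7, Lama4 had a log2 fold change of 2.66 ± 0.70 with IFNγ/LPS (edgeR adjusted p = 0.0528), and the 2 groups did not overlap. Without the 3 libraries low in long transcripts it was 2.01 and was called (adjusted p = 0.0088). In STHdhQ111 the log2 fold change was 0.65 ± 0.61 (adjusted p = 0.551).

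Lama5 (chr2:180176373-180225859), the widespread α chain of adult basement membranes, stood at 23.2, 34.7 and 41.5 TPM in Q7-C and at 12.6, 15.1 and 13.7 TPM in Q111-C. In Q7-T it stood at 28.1, 14.0 and 30.1 TPM, and in Q111-T at 14.3, 5.85 and 11.8 TPM. The nontreated lines did not overlap, and among the treated libraries Q7-T replicate 2 was under Q111-T replicate 1. The log2 fold change was -1.56 ± 0.23 in both comparisons (edgeR adjusted p = 0.0005 and 0.000371). Lama2 (chr10:26980036-27619758), the muscle and Schwann cell chain, was lower in level. It stood at 0.445, 0.953 and 1.09 TPM in Q7-C, 0.526, 0.369 and 0.531 TPM in Q7-T, 0.194, 0.237 and 0.209 TPM in Q111-C and 0.107, 0.0864 and 0.230 TPM in Q111-T. The STHdhQ111 libraries were all under the STHdhQ7 libraries, with log2 fold changes of -2.21 ± 0.34 and -2.18 ± 0.35. With limma at pseudocounts of 0.5 and 1 the log2 fold changes lay between -0.87 and -0.37.

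Lamb1, Lamb2 and Lamc1, which form the trunk shared by most laminins, were called in no comparison. Lamb2 ranged from 70.8 to 102.6 TPM in Q7-C, 31.8 to 66.5 in Q7-T, 114.0 to 126.2 in Q111-C and 43.4 to 92.4 in Q111-T. Its treated and nontreated libraries did not overlap in either line, with log2 fold changes of -0.64 ± 0.20 and -0.60 ± 0.20 (edgeR adjusted p = 0.117 and 0.0626). Lamc1 ranged from 9.48 to 54.5 TPM and Lamb1 from 10.1 to 29.7 TPM over all libraries, and both lowest values were in Q7-T replicate 2.

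**Figure D3:**
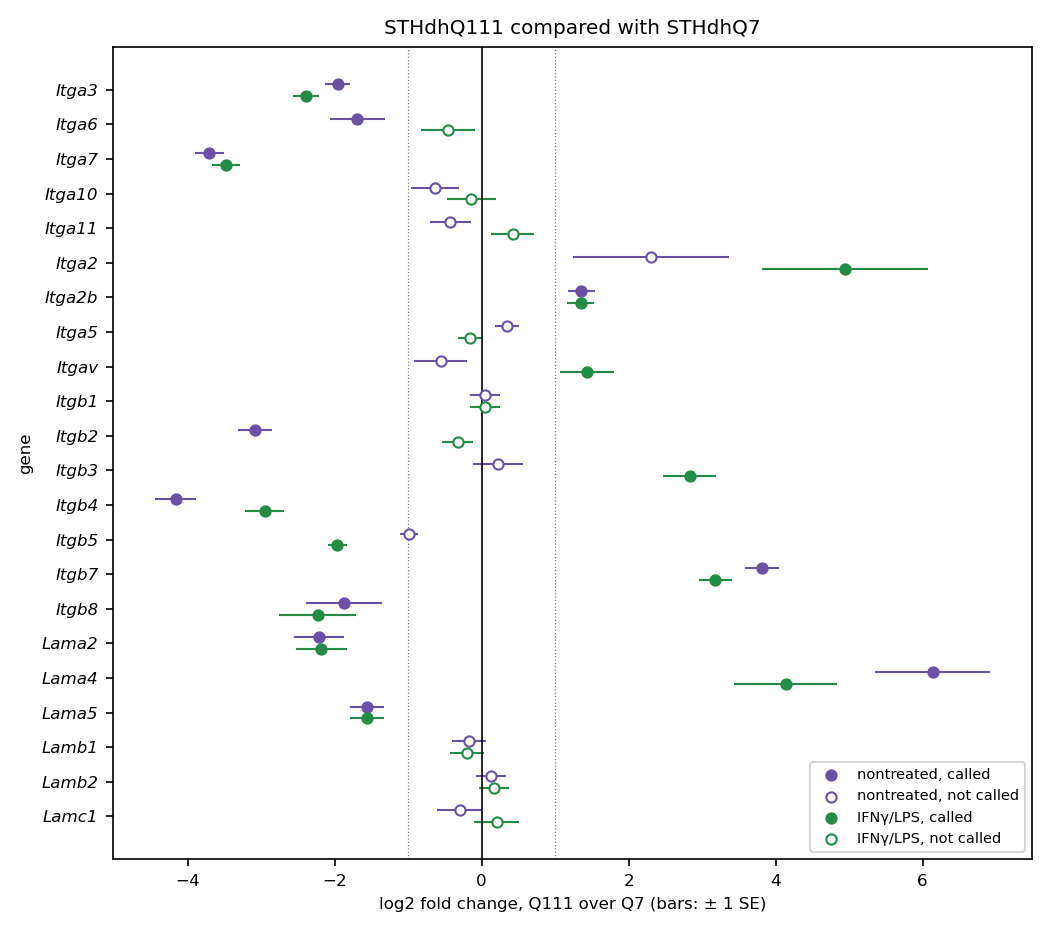
Log2 fold change of STHdhQ111 over STHdhQ7 for 22 of the 23 genes tested, for nontreated cells (purple) and IFNγ/LPS-treated cells (green), with bars of 1 SE on each side and filled points for genes called. Dotted lines mark a 2-fold difference. Itgb7 and Lama4 lie to the right and Itga3, Itga7, Itgb4, Itgb8, Lama2 and Lama5 to the left in both conditions, while Itgb3 and Itgav are filled for treated cells alone.

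**Figure D4:**
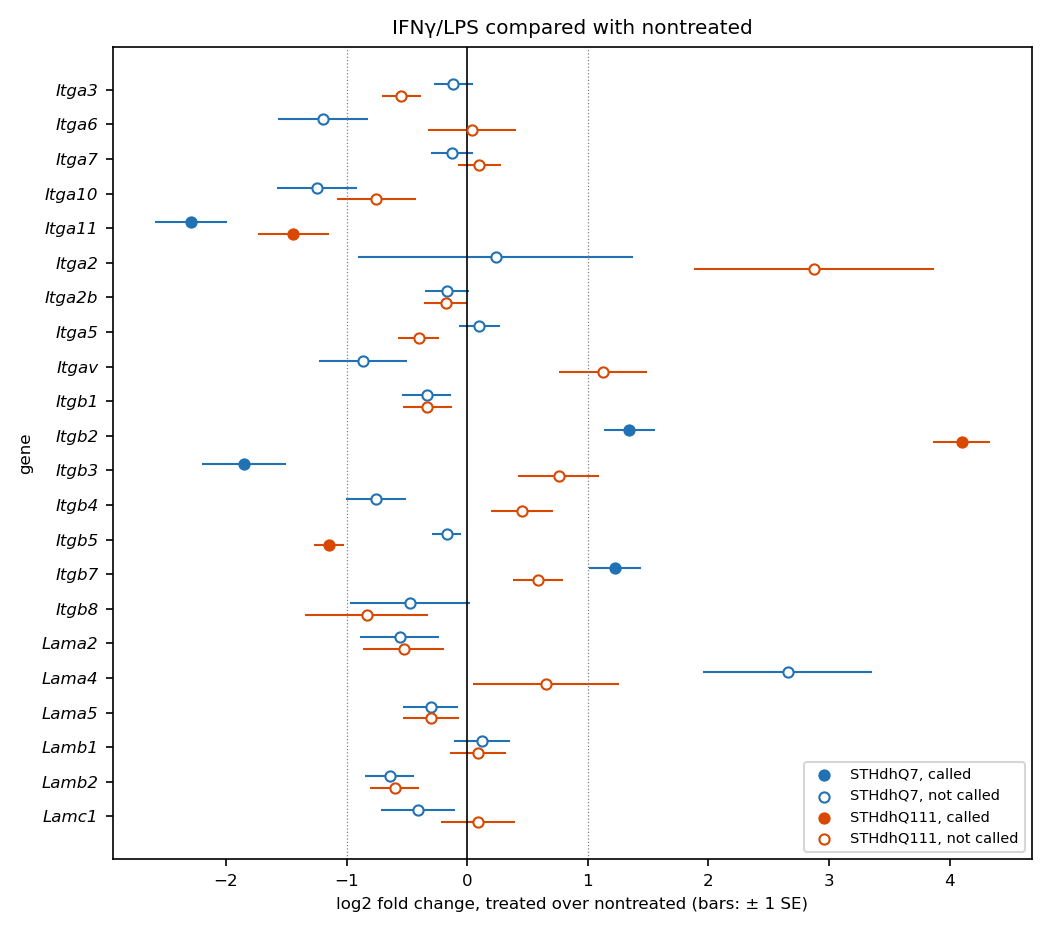
Log2 fold change of treated over nontreated cells for the same genes in STHdhQ7 (blue) and STHdhQ111 (orange), with bars of 1 SE on each side and filled points for genes called. Itgb2 is filled on the right and Itga11 on the left in both lines. Itgb3 and Itgb7 are filled for STHdhQ7 alone, and Itgb5 for STHdhQ111 alone.

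The make-up of each chain family was read as the share of each gene in the summed TPM of its family. With 3 libraries against 3, the two-sided exact permutation test cannot give a p under 0.1, and the shares below whose groups do not overlap reach it. In the integrin α family, Itga3 held 35.9% ± 0.413 (SD, n = 3) in Q7-C and 12.7% ± 0.653 in Q111-C, and Itga5 held 39.0% ± 2.04 and 67.9% ± 1.03 (exact permutation p = 0.1 for both). The Itgav share was 6.53% ± 0.838 in Q111-C and 16.7% ± 2.43 in Q111-T (exact permutation p = 0.1). In the β family, Itgb5 held 36.4% ± 6.50 in Q7-C, 20.9% ± 1.31 in Q111-C and 12.3% ± 0.579 in Q111-T. Itgb7 held 0.295% ± 0.0838 in Q7-C, 4.74% ± 0.479 in Q111-C and 9.19% ± 0.415 in Q111-T.

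In the laminin α family, Lama5 made up 97.3% ± 0.516 of the summed TPM in Q7-C and 96.7% ± 0.794 in Q7-T, but 74.8% ± 0.327 in Q111-C and 59.4% ± 4.78 in Q111-T. Lama4 made up 0.137% ± 0.177, 1.16% ± 0.325, 23.8% ± 0.359 and 37.7% ± 3.71 in the same order. In the other laminin families Lamb2 and Lamc1 held the largest share in every group, with group means between 71.0% and 83.3% for Lamb2 and between 90.3% and 96.4% for Lamc1. The Lamb1 share was 19.4% ± 2.41 in Q7-C and 28.9% ± 4.42 in Q7-T, and 16.4% ± 0.788 in Q111-C and 24.3% ± 1.90 in Q111-T (exact permutation p = 0.1 in each line).

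**Figure D5:**
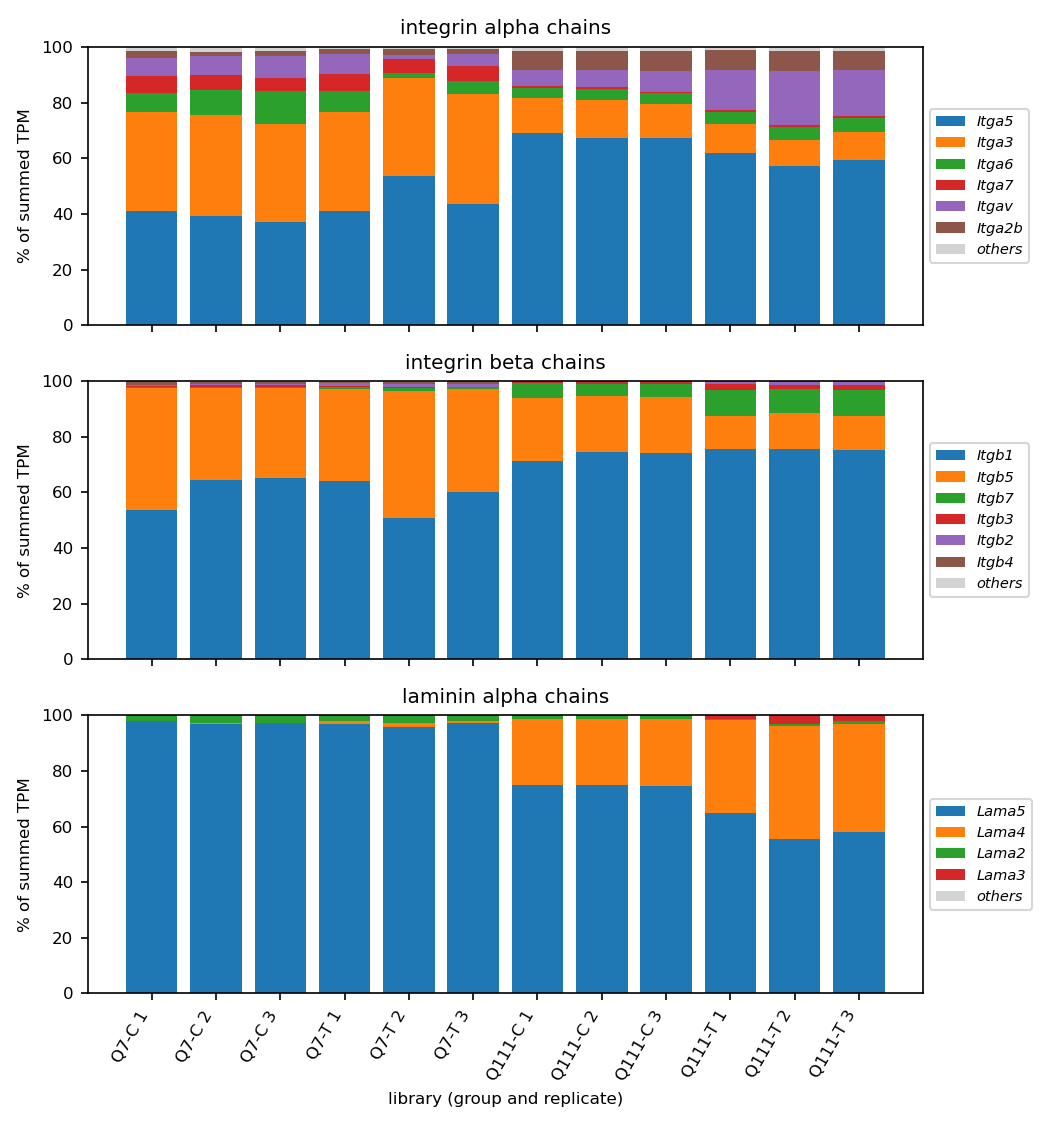
Share of each gene in the summed TPM of the integrin α, integrin β and laminin α chains, as stacked bars from 0 to 100%, 1 bar per library. The Itga3 and Itgb5 segments are shorter and the Itga5, Itgb7 and Lama4 segments longer in the 6 STHdhQ111 libraries than in the 6 STHdhQ7 libraries, by group mean.

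The other 13 genes did not pass the filter and were not part of the main test. The collagen receptor chain gene Itga1 had the highest single value, at 1.09 TPM in Q7-C, and Lamb3 reached 0.673 TPM, Lamc3 0.518 TPM and Lama3 0.410 TPM. Itgax, Itgae, Itgb6, Itgad and Itgal had highest values of 0.302, 0.288, 0.202, 0.185 and 0.163 TPM. Itga4, Itgam, Itga9 and Itga8 had no value above 0.0775, 0.0762, 0.0527 and 0.0491 TPM.

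Genes that work with integrins and laminins were taken from a list of their linkers, kinases, ligands, other laminin receptors and tetraspanins, of which 62 were tested. In Q111-C vs. Q7-C, 16 were called, 8 higher and 8 lower, and between the treated lines 20 were called, 9 higher and 11 lower. IFNγ/LPS in STHdhQ7 called 8, 4 in each direction, and in STHdhQ111 it called 16, 10 higher and 6 lower. These counts include Fbln1 between the lines and Icam1 and Postn with treatment, which passed the filter through the line or condition where they are high and are given with no test. The shares of all genes are those given above for the same comparisons. By class, 10 of 18 ligands, Fbln1 among them, were called between the nontreated lines and 9 of 18 between the treated lines. For the other laminin receptors and laminin-like genes the counts were 3 of 7 and 1 of 7, and for the linkers 3 of 22 and 5 of 22. The tetraspanins had 0 and 4 of 8, and the kinases and adaptors 0 and 1 of 7. The classes were not compared by a test.

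Between the lines, the matrix genes Fbln1, Fbln2 and Nid2 had the highest log2 fold changes of called partner genes in nontreated cells, at 6.93 ± 0.41, 2.72 ± 0.24 and 1.93 ± 0.30. Fibulins and nidogens bind laminin networks. Ntn4, a netrin that binds laminin γ chains, the talin gene Tln2 and the tenascin gene Tnc had the lowest, at -4.24 ± 0.30, -3.36 ± 0.25 and -3.11 ± 0.27. The edgeR adjusted p was 0.000567 or less for these genes other than Fbln1, which passed the filter through STHdhQ111 alone. Ntn4 stood at 8.44, 19.9 and 21.9 TPM in Q7-C and at 1.17, 1.14 and 0.842 TPM in Q111-C. In treated cells the highest were Fbln1 (6.61 ± 0.41), the α8β1 ligand gene Npnt (2.97 ± 0.34) and Nid2 (2.62 ± 0.30), and the lowest Tln2 (-3.27 ± 0.25), Ntn4 (-2.95 ± 0.29) and Tnc (-2.59 ± 0.27).

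Icam1, the ligand of β2 integrins, passed the filter through treated libraries alone, and its log2 fold changes with IFNγ/LPS were 3.60 ± 0.39 in STHdhQ7 and 4.38 ± 0.41 in STHdhQ111. Nid1, which links laminin to type IV collagen, rose by 2.67 ± 0.36 and 2.95 ± 0.36 on that scale (edgeR adjusted p = 0.000621 and 0.000137). Its values were 27.0, 60.2 and 68.6 TPM in Q7-C and 429.0, 93.7 and 393.8 TPM in Q7-T. They were 74.7, 88.7 and 98.9 TPM in Q111-C and 683.2, 489.5 and 736.2 TPM in Q111-T. Treated and nontreated libraries did not overlap in either line.

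The netrin gene Ntn1 was the third highest called partner gene in STHdhQ7 (log2 fold change 2.31 ± 0.31) and the focal adhesion kinase relative Ptk2b in STHdhQ111 (2.27 ± 0.31). The lowest in STHdhQ7 were Npnt (-1.89 ± 0.33), Ccn2 (-1.66 ± 0.25) and Nid2 (-1.27 ± 0.29), and the lowest in STHdhQ111 were the osteopontin gene Spp1 (-2.45 ± 0.21), Postn (-1.74 ± 0.37, through nontreated libraries alone) and the syndecan gene Sdc2 (-1.60 ± 0.15). Spp1 stood at 209.8, 240.9 and 251.0 TPM in Q111-C and at 37.2, 39.2 and 42.6 TPM in Q111-T. The interaction called 5 of the 62: Ptk2b, Npnt, Cd44 and Ccn1 with the higher value in STHdhQ111, and Spp1 with the lower (log2 difference -2.37 ± 0.28, edgeR adjusted p = 0.000774).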

How the data were processed

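RNA-seq of 12 libraries (4 groups of 3, taken from the sample titles) was analysed. Per the study's methods and the submitters' processing notes, the authors trimmed reads with cutadapt, mapped them with HISAT2 to GRCm38 and estimated expression with StringTie. The authors deposited TPM values and unnormalized estimated counts per gene, summing to between 57505990 and 96417834 counts per library (median 67234786). Low counts favoured multiples of 4, so 1 read pair was taken as about 4 counts and 12 counts as 3 read pairs, and such floors cover counting error only. Replicates differed by more than sampling noise (chi-square per degree of freedom of 18.3 or more).

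Counts were rounded, filtered (0.5 TPM or more in 3 or more libraries), scaled by TMM and tested with edgeR 4.0.16 (R 4.3.3; quasi-likelihood, all 12 libraries, a mean per group), with Benjamini-Hochberg adjustment over 16127 genes and a call at adjusted p under 0.05 with a fold of 2 or more. The study used DESeq2, which was run (1.42.0) as an alternative beside limma 3.58.1 on log2(TPM + 0.5), other filters and pseudocounts, counts divided by 4, a replicate block and omission of libraries. The procedure was tested on simulated data. Promoters came from RefSeq, and plots from matplotlib 3.10.9.

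The genes and lists were chosen with earlier results of these data known. Genes called in at least 1 comparison are given by library (1 that was called is not reported here), other tested genes by range, and, of partner genes, the 3 highest and 3 lowest called fold changes of each comparison. The study names its replicates biological, and the labels do not say that they were separate cultures, so p-values measure the spread between these samples. Same-numbered libraries did not deviate together as a rule, although replicate 2 of Q7-T and of Q111-T were both low in long transcripts.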

Additional observations from a re-analysis of the deposited data

Results flagged for a closer look

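The responses of 3 integrin genes to IFNγ/LPS differed between the lines by the test of the difference itself, edgeR's interaction of line and treatment, on the log2 scale and as STHdhQ111 minus STHdhQ7. The difference was 2.75 for Itgb2, which rose in both lines, although the call in STHdhQ7 was lost in all 3 limma fits. The difference was 2.61 for Itgb3, which fell in STHdhQ7 and was not called in STHdhQ111, except without the 3 libraries low in long transcripts (1.02, edgeR adjusted p = 0.0006). It was 1.99 for Itgav, which was called in neither line, although its rise in STHdhQ111 was called without those 3 libraries (1.16, edgeR adjusted p = 0.0006), by DESeq2 (adjusted p = 0.0149), with counts divided by 4 and in the groups compared alone. The values of Itgb3 and Itgav in Q7-T replicate 2 were the lowest of their group, and that library was low in long transcripts. Without it the difference was 2.63 for Itgb3 and 1.60 for Itgav, and both were still called. The Itgb3 call was lost in all 3 limma fits on TPM (adjusted p 0.0663 to 0.0746), the Itgav call in 14 of 22 alternatives, 9 of them the omission of another single library, and the Itgb2 call in limma with a pseudocount of 1 (adjusted p = 0.0501). Without Q7-T replicate 2 and the other 2 libraries low in long transcripts the interaction called 5 of the 23 genes, adding Itgb4 and Itga6, beside 9.85% of all genes. A group of 3 libraries is too small for a test of single outlying samples.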

How the results depend on the processing

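Of the 35 calls of a gene in a comparison, 20 held in every alternative, 15 were lost in at least 1, and 0 reversed. The 35 include the calls between the lines of Lama4, Lama2, Itgb8 and Itga2, which passed the filter through 1 line alone. Those calls are no support for a difference, and both Lama4 calls are among the 20. Leaving out single libraries ended 2 of them, the Itgav interaction and Itgb8 in Q111-C vs. Q7-C. The counts for the nontreated lines and for the treated lines stayed within 1.5 times the main count in every alternative. In brackets below stands the share of all genes called in the same fit. For Q7-T vs. Q7-C, the main count was 4 (4.04%). DESeq2 called 7 members (5.65%), and limma with a pseudocount of 0.5 or 1 called 1 (3.12% and 2.55%). A fit of the groups compared alone called 2 (2.44%). The fit without the 3 libraries low in long transcripts, chosen after the data were seen, called 7 (5.04%). For Q111-T vs. Q111-C (main count 3), the counts were 5 with DESeq2, 6 without a filter, 5 with counts divided by 4, 5 in the groups compared alone and 6 without the 3 libraries. For the interaction, the main count was 3 (4.71%). Limma with a pseudocount of 1 called 0 (4.76%), and the fit without the 3 libraries called 5 (9.85%).

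For the partner genes, shares of all genes in the same fit are again in brackets. Q7-T vs. Q7-C (main count 8) gave 5, 5 and 4 with limma at pseudocounts of 0.5, 0.1 and 1 (3.12%, 3.64% and 2.55%). It gave 3 in the groups compared alone (2.44%). Q111-T vs. Q111-C (main count 16) gave 10 with limma at a pseudocount of 1 (8.32%). The interaction (main count 5) gave 3 and 2 with limma at 0.5 and 1 (5.21% and 4.76%) and 10 without the 3 libraries (9.85%). It gave 3 to 7 when single libraries were left out (3.17% to 6.19%), the lowest count without Q111-C replicate 1. The cause of these shifts was not tested.

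In the limma fit on log2(TPM + 0.5), the median log2 fold change of all genes was 0.27 between the nontreated lines and 0.34 between the treated lines, against -0.02 and -0.03 in the edgeR fit, and the share of all calls that were higher went from 50.0% to 66.0% and from 54.2% to 79.1%. Members called there were 3 higher and 5 lower, and 6 higher and 5 lower. The replicate block called 12, 13, 4, 3 and 2 members in the 5 comparisons, the loss being Itgav in the interaction (2.06, adjusted p = 0.0572). Replicate numbers did not pair the libraries throughout: same-numbered deviations correlated between -0.582 and 0.45, with 7 of 18 over 0.1, and 4 of 18 were the best match. Among these 4 was replicate 2 of Q7-T and of Q111-T (0.328), both low in long transcripts. Depth limits Itga2, Lama4 in STHdhQ7 and the 13 genes under the filter.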

Other observations

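Some genes under the filter differed between groups at low levels, and the values of 4, picked after they were seen, are given here. Itgad stood at 0.164, 0.185 and 0.166 TPM in the Q111-C libraries and at 0 in the other 9 libraries. Itgax stood at 0.132 to 0.302 TPM in Q111-C and at 0.0735 to 0.208 TPM in Q111-T, and its highest value in STHdhQ7 was 0.013 TPM. Lama3, the α chain of the epithelial laminin, stood at 0.269, 0.313 and 0.410 TPM in Q111-T and at 0.06 TPM or less in the other groups. Lamc3 stood at 0.451, 0.518 and 0.370 TPM in Q7-T, at 0.147 to 0.228 TPM in Q7-C, at 0.184 to 0.207 TPM in Q111-T and at 0.0418 to 0.0745 TPM in Q111-C. Between the nontreated lines, the edgeR fit without a filter called Itgad and Itgax higher and Itgal, Lamc3 and Itga1 lower in STHdhQ111. Between the treated lines it called Lama3, Lamb3 and Itgax higher and Lamc3 lower. For treatment of STHdhQ111 it called Lama3 and Lamc3 higher and Itgad lower, and by the interaction Lama3. Without a filter, 8.51% of all genes were called between the nontreated lines and 13.5% between the treated lines. The share was 5.96% for treatment of STHdhQ111 and 2.17% for the interaction. Itgad and Itgax were at 0 in every Q7-C library and Itgal in every Q111-C library. These calls are therefore given as a description and are no support for a difference.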
